A study of Homo sapiens with 15 samples.

Results

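The genes described are 3 glucose transporters and 7 enzymes of glycolysis, 10 of the 48777 genes listed in the deposited tables. They were chosen by name, with each Ensembl identifier matched to its GENCODE symbol, and all 10 were listed. SLC2A1, SLC2A3 and SLC2A4 encode the transporters GLUT1, GLUT3 and GLUT4. HK1 and HK2 encode hexokinases, PFKM and PFKP encode the muscle and platelet forms of phosphofructokinase, ALDOA encodes aldolase A, and LDHA and LDHB encode the subunits of lactate dehydrogenase.

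The values come from bulk RNA-seq of H1, an established human embryonic stem cell line, during differentiation towards the heart lineage on the laminins LN-521 and LN-221. Cells were sampled on days 0, 4, 9, 11 and 20, with 3 biological replicates a day and 15 libraries in all. Day 0 cells were undifferentiated in Nutristem medium, and day 11 cells are those the study calls committed cardiac progenitors (CCPs). In the study's single-cell data day 11 cells were a mixture, in which mesenchymal and fibroblast cells outnumbered CCPs. In the methods the cells moved to RPMI with B27 lacking insulin at confluence on day 4, and from day 11 the growth label gives CTS B-27. Whether the day 4 libraries were taken before this move is not stated. The treatment label places CHIR99021, a GSK3 inhibitor that activates Wnt signalling, on day 4 to day 5, and IWP2, a Wnt inhibitor, on day 7 to day 9, while the growth label places CHIR99021 on days 1 and 3 and IWP2 on day 5. All groups share the H1 line and carry no genetic change in their labels. The labels give both laminins for every library, whereas the deposited sample table lists LN-521 alone for day 0. The medium changed with the day, so that an effect of the day and one of the medium cannot be told apart.

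In background terms, glucose enters a cell down its gradient through the GLUT transporters. GLUT1 and GLUT3 work at the plasma membrane without insulin, GLUT3 with high affinity, and GLUT4 is stored in vesicles and moved to the surface when insulin acts on muscle, heart or fat cells. Hexokinase traps glucose as glucose 6-phosphate, phosphofructokinase commits it to glycolysis, aldolase splits the sugar, and lactate dehydrogenase interconverts pyruvate and lactate. HK2, PFKM, LDHB and GLUT4 are the forms usually named for the adult heart, and pluripotent stem cells are known for a high rate of glycolysis.

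The genes lie on 7 chromosomes (GRCh38, GENCODE release 44), SLC2A1 at chr1:42925353-42958893, HK2 at chr2:74834127-74893359, PFKP at chr10:3066333-3137718, HK1 at chr10:69269984-69401884, LDHA at chr11:18394560-18408425, SLC2A3 at chr12:7919230-8019007, LDHB at chr12:21635342-21757857, PFKM at chr12:48105139-48146404, ALDOA at chr16:30064164-30070457 and SLC2A4 at chr17:7281718-7288257. Exons of ALDOA share 1639 bases, exons of LDHB 997 bases and exons of PFKP 120 bases with another annotated gene on the same strand, so their reads could be divided or lost in counting. The strand setting of the counting was not given in the sources used here, and on the opposite strand PFKM shares 516 exonic bases with SENP1, HK1 shares 49 with a pseudogene, and ALDOA, SLC2A1 and SLC2A4 share 520, 497 and 117 with non-coding RNAs. SLC2A3 has a near-identical copy, SLC2A14, between which reads could be split.

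Promoter sequence is shown for HK2 and LDHA, which fell together on day 9, and for LDHB, the partner of LDHA that did not pass the test there. Capitals mark every ACGTG on either strand (the reverse strand reads CACGT), the core of the hypoxia response element, and CACGTG is also the E-box, where matches on both strands overlap. Sequences are from RefSeq on GRCh38.p14, each running 5′ to 3′ on the strand of its gene, from the start of a RefSeq window of 250 bases to the point where an exon of the gene in GENCODE begins. HK2 is chr2:74833877-74834126 on the plus strand, LDHA is chr11:18394313-18394559 on the plus strand and LDHB is chr12:21657972-21658092 on the minus strand. The LDHB stretch is 121 bases of its window and lies inside the bounds of the gene in GENCODE, which reach further upstream.
HK2: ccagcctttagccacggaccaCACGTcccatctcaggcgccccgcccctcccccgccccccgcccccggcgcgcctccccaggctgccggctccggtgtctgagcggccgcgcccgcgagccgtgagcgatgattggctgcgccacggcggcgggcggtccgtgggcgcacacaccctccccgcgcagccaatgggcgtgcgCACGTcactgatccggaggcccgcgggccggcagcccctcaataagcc
LDHA: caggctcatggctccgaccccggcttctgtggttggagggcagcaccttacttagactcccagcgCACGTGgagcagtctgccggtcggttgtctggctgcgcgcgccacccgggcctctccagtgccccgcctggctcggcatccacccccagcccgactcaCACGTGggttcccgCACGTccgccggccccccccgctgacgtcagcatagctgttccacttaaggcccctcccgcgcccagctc
LDHB: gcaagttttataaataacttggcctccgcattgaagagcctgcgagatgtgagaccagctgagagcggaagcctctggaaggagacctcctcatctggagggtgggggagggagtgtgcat
The LDHA stretch holds the motif in 3 places, of which 2 are CACGTG, the HK2 stretch in 2 places and the LDHB stretch in none. RefSeq windows were matched for 8 members, not including SLC2A3 and SLC2A4, and gave 27 windows, of which 8 held ACGTG in the 250 bases before the start. These 8 windows belonged to 5 members, HK2, PFKM, PFKP, ALDOA and LDHA. Of these, PFKM and PFKP did not pass the test on day 9, while SLC2A1 and HK1, which fell there, had the motif in none of their windows (1 and 7). Over all 35116 windows of the same length, 18.5% held ACGTG, 6.34% held CACGTG and 0.35% held ACGTG in at least 3 places. A match is a description of letters and not evidence of binding.

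Each library summed to 11990302 to 33469703 counts (median 22867831). The lowest total was that of day 0 replicate 3, where 35% of reads mapped to one place. This share was 46% in the day 9 library of plate 2 and 57% to 86% in the others. The members were well counted, the lowest count in any library being 114 for SLC2A4 and at least 1021 for each of the other 9. Day 20 libraries 2 and 2_3 carry the same plate number and were counted as separate replicates. The day 20 library labelled 2_3 stood apart. Its RNA integrity number was 6.1, against 8.8 to 10.0 in the others, it listed 48230 genes against at most 39551, and nearly silent genes had reads there. These were the 189 coding genes of at least 2000 bases with no more than 2 counts summed over the 12 libraries of days 0 to 11. All of them had reads in library 2_3, at a median of 2.73 TPM, against 74.6% in library 6_1, at a median of 0.152 TPM, 18.5% in library 2 and 1.06% to 26.5% in the earlier libraries. The marker lists followed the labels of days 0 and 4 for pluripotency, summing to 8898 to 11164 TPM on day 0 and 155 to 774 TPM on day 20. The cardiomyocyte list summed to 27.7 to 45.1 TPM on day 0, 3735 to 20605 TPM on day 11 and 5232 to 22895 TPM on day 20. In bulk samples such as these, fewer cells of a type and less RNA per cell cannot be told apart.

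Levels are given as TPM, in which counts are divided by gene length and scaled to the same total in every library, and this is the scale on which genes are compared with each other. Fold changes are log2 differences from edgeR's quasi-likelihood test on the counts of the 6 libraries of 2 days, with the standard error (SE) and a Benjamini-Hochberg adjusted p over all genes tested, and a gene is said to rise or fall where this is under 0.05.

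**Figure D1:**
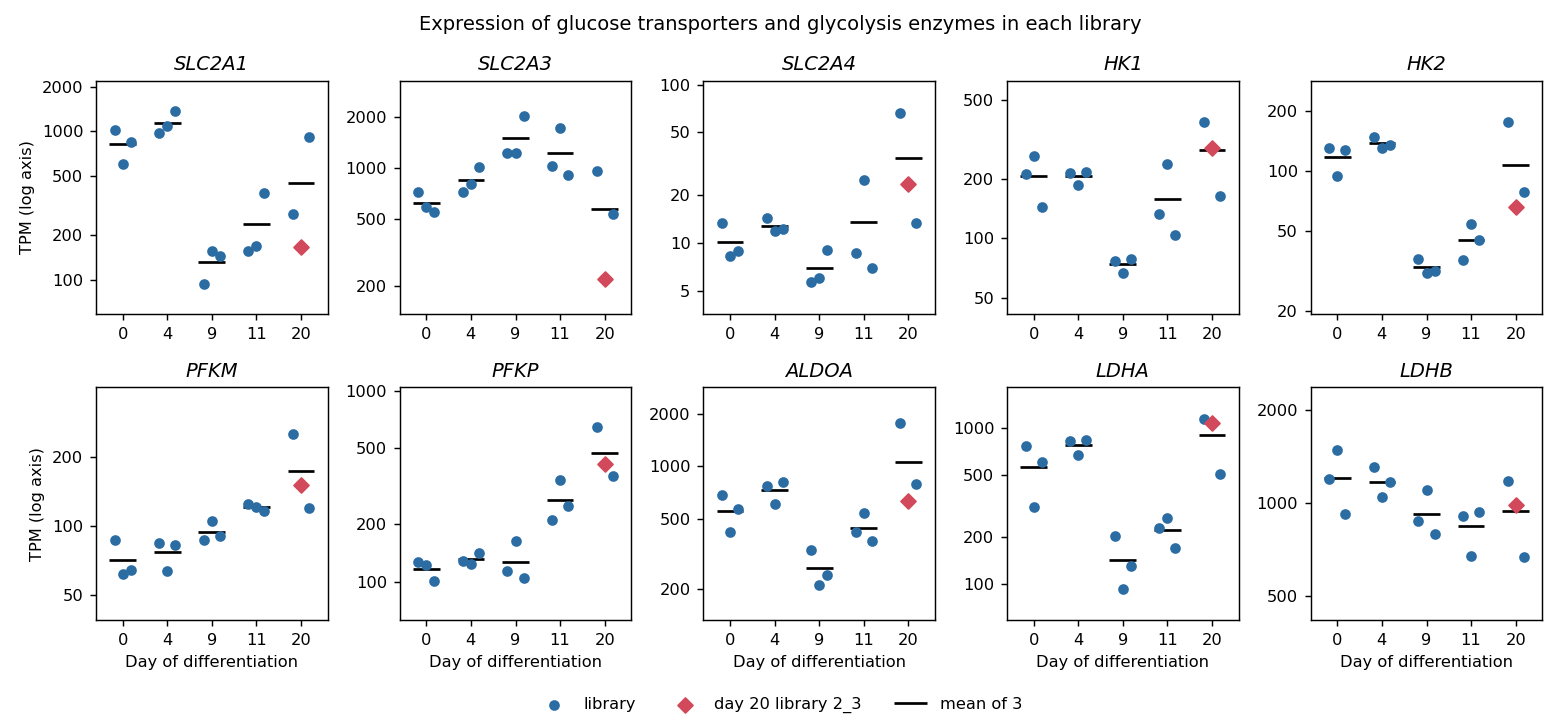
TPM (log axis) of the 10 genes in each of the 15 libraries against day of differentiation. Points are libraries, the red diamond is the day 20 library labelled 2_3 and bars are means of 3. SLC2A1, HK1, HK2, ALDOA and LDHA dip on day 9, SLC2A3 is highest there, PFKM and PFKP are higher on days 11 and 20 than on day 0, and LDHB stays between 666 and 1482 TPM.

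On days 0 and 4 the cells carried high levels of all of these genes but SLC2A4. LDHB was highest on day 0 at 1202 ± 279 TPM (SD, n = 3), followed by SLC2A1 at 822 ± 206, SLC2A3 at 617 ± 89.9, LDHA at 559 ± 227 and ALDOA at 558 ± 132 TPM. Each neighbour in this order overlapped the next between libraries. HK1 (205 ± 58.7 TPM) lay below ALDOA without overlap, HK2 (117 ± 20.2) and PFKP (117 ± 14.1) overlapped, PFKM stood at 71.1 ± 13.9 TPM and SLC2A4 was far lower at 10.2 ± 2.84 TPM. By mean TPM over all genes LDHB ranked 81 and SLC2A4 ranked 10704 on day 0.

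Day 4 against day 0 asks what changed before or as differentiation began. None of the 10 members passed the test, and neither did any of the 20964 genes tested, 0.00% in each direction (edgeR, with 741 genes at an unadjusted p under 0.05). DESeq2 and limma also called none, and dropping the filter on low counts gave 64. The median log2 difference of the members was 0.21, against -0.0097 over all genes. SLC2A3 came nearest, with all 3 day 4 libraries (719, 802 and 1009 TPM) above the day 0 libraries (718, 585 and 547 TPM) on TPM and on scaled counts, a log2 difference of 0.38 ± 0.16 SE and an adjusted p of 0.885 by edgeR. Only lane 1 held both a day 0 library and a day 4 library, so lane and day were largely confounded in this comparison.

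Day 9 against day 4 gave the most calls of the 6 comparisons when each pair of days was fitted alone, 10406 genes. With all 15 libraries in the same fit it gave 6220, fewer than day 11 against day 0 (7988) and day 20 against day 0 (9916). Of the 10 members 6 fell and 1 rose, where 24.7% of the 21252 genes tested fell and 24.3% rose. The members' median log2 difference was -1.15, against 0.013 over all genes. SLC2A1, HK2, LDHA, HK1, ALDOA and SLC2A4 fell and SLC2A3 rose, while PFKM, PFKP and LDHB did not pass the test. Over the same step the pluripotency markers fell in 7 of 7, and markers of several other cell types rose. The endoderm and liver list rose in 6 of 8 (median log2 difference 7.70, from sums of 5.20 to 12.4 TPM to sums of 404 to 1297 TPM), the cardiomyocyte list in 4 of 8 (1.94) and the mesenchymal list in 4 of 6 tested (1.43). The epithelial and endothelial lists each gave 3 higher and 2 lower of 6, the neural list 3 lower of 4 and the erythroid list 2 higher of 2. The part of this change in cell make-up in the members' values was not tested.

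SLC2A1, the transporter of basal uptake, was at 969, 1083 and 1365 TPM in the day 4 libraries and at 94.3, 156 and 146 TPM in the day 9 libraries. Every day 9 library lay far below every day 4 library. The log2 difference was -3.10 ± 0.21 SE, an 8.56-fold lower level (adjusted p = 1.53e-05, edgeR), and within sequencing lanes 1, 2 and 5 it was -3.48, -3.25 and -2.76 on scaled log2 counts (log2 CPM).

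SLC2A3, the high-affinity transporter, moved the other way. Its day 4 libraries held 719, 802 and 1009 TPM and its day 9 libraries 1217, 1224 and 2035 TPM, with no overlap. It rose by 0.85 ± 0.25 SE on the log2 scale (adjusted p = 0.0207, edgeR), with differences of 0.65, 0.16 and 1.47 within lanes 1, 2 and 5. The call was lost with the lane as a block (adjusted p = 0.0554), with all 15 libraries in the same fit (0.174), and without the day 4 library of plate 1 (0.078) or of plate 2 (0.0822). SLC2A14, its near-identical copy, was at 11.9 to 35.1 TPM over days 0 to 9 and did not pass the test in any comparison (0.37 ± 0.23 SE and adjusted p = 0.22, edgeR, on day 9 against day 4).

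SLC2A4, which encodes the insulin-responsive transporter, was low throughout this step, at 14.3, 11.9 and 12.2 TPM on day 4 and 5.7, 5.97 and 9.06 TPM on day 9. The groups did not overlap and the log2 difference was -0.86 ± 0.22 SE (adjusted p = 0.0121, edgeR). With all 15 libraries in the same fit it did not pass, at an adjusted p of 0.271.

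Both hexokinases fell. HK1, the form of most tissues, was at 214, 185 and 217 TPM on day 4 and 76.6, 66.6 and 78.8 TPM on day 9. HK2, the form of insulin-sensitive tissue and of many growing cells, was at 148, 130.5 and 135 TPM and then at 36.5, 30.8 and 31.5 TPM. Neither gene overlapped between the days, and replicates lay close together. The log2 differences were -1.45 ± 0.15 SE for HK1 (adjusted p = 1.22e-04, edgeR) and -2.04 ± 0.14 SE for HK2 (adjusted p = 1.71e-05, edgeR).

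The phosphofructokinases did not follow. PFKM was at 84.6, 63.5 and 82.8 TPM on day 4 and 87.3, 105 and 91 TPM on day 9, and PFKP was at 129, 124 and 142 TPM and then 114, 164 and 105 TPM. PFKM libraries did not overlap but missed the threshold, with a log2 difference of 0.31 ± 0.14 SE (adjusted p = 0.0893, edgeR). PFKP libraries overlapped, at -0.036 ± 0.15 SE (adjusted p = 0.858, edgeR). PFKL, the liver form and the remaining gene of this step, fell by 0.63 on the log2 scale.

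ALDOA, the aldolase of muscle and most growing cells, was at 774, 610.2 and 814 TPM on day 4 and 337, 213 and 240.0 TPM on day 9. It did not overlap and fell, at -1.44 ± 0.23 SE on the log2 scale (adjusted p = 0.00118, edgeR).

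The subunits of lactate dehydrogenase gave log2 differences of unlike size. LDHA, the subunit usually tied to lactate production, was at 819, 666 and 839.5 TPM on day 4 and at 203, 93.3 and 129.5 TPM on day 9, a log2 difference of -2.40 ± 0.32 SE (adjusted p = 6.25e-04, edgeR). LDHB, the subunit of the heart enzyme, was at 1305, 1050.4 and 1169 TPM and then at 874, 1104 and 794 TPM. LDHA thus fell 5.29-fold with no overlap, while LDHB differed by -0.34 ± 0.15 SE and missed the threshold (adjusted p = 0.0885, edgeR). LDHB libraries of day 9 also lay below those of day 4 on log2 CPM, though they overlapped on TPM. Within lanes 1, 2 and 5 LDHB differed by -0.22, -0.21 and -0.75. The falls of SLC2A1, SLC2A4, HK1, HK2, ALDOA and LDHA had the same direction in all 3 lanes that held a day 4 and a day 9 library.

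**Figure D2:**
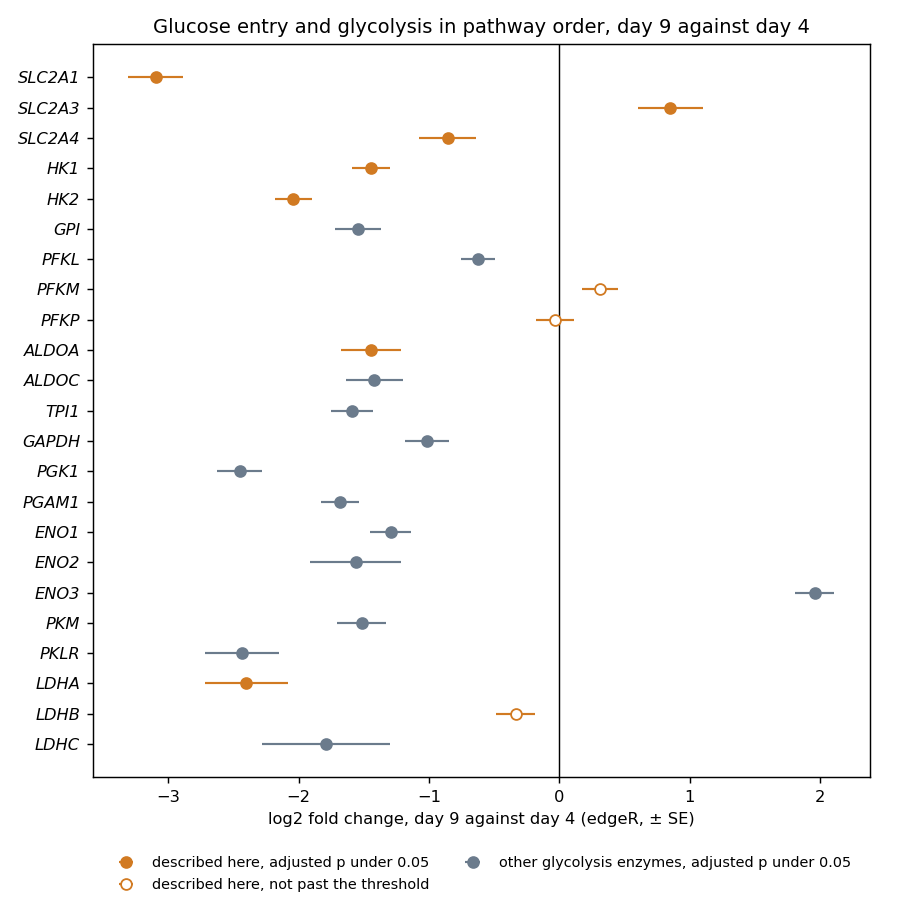
Log2 fold change of day 9 against day 4 from edgeR with its SE (bars) for the transporters and the listed glycolysis enzymes that were tested, in pathway order from glucose entry at the top to lactate dehydrogenase at the bottom. Orange points are the 10 genes described and grey points the other enzymes, and open points did not pass an adjusted p of 0.05. Most points lie between -3.10 and -0.63, and SLC2A3 and ENO3 lie above 0.5.

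The rest of glycolysis was read from a list of 17 further enzyme genes, of which 13 were tested and 1, PGAM2, is not analysed here. All 13 passed the test, with 12 lower and 1 higher on day 9 and a median log2 difference of -1.54. Over all genes tested 24.7% fell and 24.3% rose. PGK1, phosphoglycerate kinase, fell most, at -2.45 ± 0.18 SE, from a mean of 1195 to 215 TPM. TPI1 fell by 1.59, PGAM1 by 1.68, PKM by 1.52, ENO1 by 1.30 and GAPDH by 1.02 on the log2 scale. PKLR (-2.43) and LDHC (-1.79) fell at low levels, with day 9 means of 0.629 and 0.507 TPM. ENO3, the muscle enolase, rose by 1.96 ± 0.15 SE, from 16.7 to 63.9 TPM. The enzymes that set fructose 2,6-bisphosphate, the activator of phosphofructokinase, gave 4 lower and 0 higher of 5, with PFKFB4 at -2.01 and PFKFB3 at -1.09.

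The other transporters gave 4 lower and 1 higher of 9 tested on day 9 against day 4, led by SLC2A6 at -2.47. Over all genes tested 24.7% fell and 24.3% rose in this comparison, and some of the list counts here lie near these shares. Of the genes of the pentose phosphate branch 2 fell and 1 rose of 6, led by TALDO1 at -1.42, and of those of glycogen metabolism 4 fell and none rose of 7, led by UGP2 at -3.50. Genes of pyruvate and lactate handling gave 5 lower and 3 higher of 14, with PDK3 at -2.05 and SLC16A3, a lactate exporter, at -1.42, and MPC2, a subunit of the mitochondrial pyruvate carrier, at 1.94. Genes induced by low oxygen moved in both directions, with 6 lower and 2 higher of 12, EGLN3 at -2.54 and BNIP3 at -1.92 against VEGFA at 2.15. Among 13 regulators 7 rose and none fell, led by MEF2C at 5.59, EPAS1 at 4.72 and TXNIP, an inhibitor of glucose uptake, at 2.17. The insulin and GLUT4 traffic list gave 3 higher and 2 lower of 11, with IRS1 at 1.66 and INSR at -1.17.

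Day 11 against day 9 is the step into the day 11 cells that the study calls CCPs. No member passed the test, where 1.39% of the 20679 genes tested rose and 1.00% fell (495 genes by edgeR, with DESeq2 calling 2 members and 1674 genes). The members' median log2 difference was 0.62, against 0.0045 over all genes, and 8 of 10 were positive. PFKP came nearest, with day 9 libraries at 114, 164 and 105 TPM and day 11 libraries at 211, 342 and 249 TPM. These did not overlap, and the log2 difference was 1.02 ± 0.22 SE (adjusted p = 0.0635, edgeR). HK1 libraries also did not overlap, at 76.6, 66.6 and 78.8 TPM against 133, 238 and 104 TPM, a difference of 1.03 ± 0.30 SE (adjusted p = 0.133, edgeR). HK2 stayed low at 36, 54.5 and 45.2 TPM on day 11, as did LDHA at 229, 265 and 169 TPM. DESeq2 passed PFKP and HK1, and the fit without a filter on low counts passed PFKP alone. With the plate as a block and without the day 9 library that has no plate number, SLC2A1 (0.98, adjusted p = 0.0221), HK1 (0.68, 0.011) and PFKP (0.71, 0.00891) passed by edgeR.

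Of the other lists, 4 of 88 tested genes rose and 2 fell in this step, where 1.39% of all genes tested rose and 1.00% fell. PPARGC1A, a coactivator of mitochondrial genes, rose by 4.57 ± 0.51 SE, from 0.661 to 15.9 TPM, MEF2C by 2.17 and MEF2A by 0.83, and the glycogen branching enzyme GBE1 by 1.12. ADM fell by 1.18 and KLF15 by 0.72. None of the 11 other glycolysis enzymes tested passed. Of the cardiomyocyte markers 5 of 8 rose, with a list median of 4.07, and of the endoderm and liver markers 2 of 8 rose, with a median of 1.695, while 2 of 7 pluripotency markers and 1 of 2 erythroid markers fell.

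Day 11 against day 0 sets the mixed day 11 cells against the undifferentiated cells. Of the 10 members 3 rose and 3 fell, counts near the background, since 20.3% of the 21229 genes tested rose and 19.8% fell, and the members' median was -0.46 against 0.0098 over all genes. SLC2A1 was at 1017, 606 and 844 TPM on day 0 and at 155, 168 and 385 TPM on day 11, a log2 difference of -1.90 ± 0.40 SE (adjusted p = 0.00578, edgeR). HK2, at 130.2, 93.9 and 128 TPM on day 0, was lower at -1.503 ± 0.24 SE on the log2 scale (adjusted p = 0.00139, edgeR). LDHA, at 761, 313 and 602 TPM on day 0, gave -1.46 ± 0.33 SE (adjusted p = 0.00787, edgeR). No day 11 library of these 3 genes overlapped a day 0 library. Only lane 1 held libraries of both days, so lane and day were largely confounded here too. Within lane 1 the differences on log2 CPM were -2.70 for SLC2A1, -1.60 for HK2 and -1.56 for LDHA.

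The 3 members that rose were SLC2A3, PFKM and PFKP. PFKP went from 127, 124 and 101 TPM to 211, 342 and 249 TPM, a log2 difference of 1.08 ± 0.20 SE (adjusted p = 0.00299, edgeR). PFKM went from 87.1, 62 and 64.1 TPM to 125, 121 and 116 TPM, at 0.66 ± 0.17 SE (adjusted p = 0.0142, edgeR), or 0.0594 with all 15 libraries in the same fit. SLC2A3 went from 718, 585 and 547 TPM to 1025, 1729.6 and 904 TPM, at 0.87 ± 0.25 SE (adjusted p = 0.0239, edgeR), and this call was lost when any day 0 library was left out (adjusted p of 0.0671 to 0.0757). All 3 were without overlap. Within lane 1 the differences on log2 CPM were 1.29 for SLC2A3, 0.54 for PFKM and 1.39 for PFKP. Leaving out day 11 plate 5 brought HK1 past the threshold (-0.85, adjusted p = 0.018, edgeR), and its main value was -0.47. Within lane 1, which held plate 5 of day 11, HK1 differed by 0.35. ALDOA, HK1, LDHB and SLC2A4 did not pass, and LDHB stood just outside (-0.61 ± 0.22 SE, adjusted p = 0.0510, edgeR). LDHB passed by DESeq2 (adjusted p = 0.0387), and by edgeR with scaling to library size alone (0.0408) or without day 11 plate 6 (0.0483).

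Day 11 against day 0 also left the rest of glycolysis low, with 10 lower and 1 higher of 12 enzymes tested and a median of -0.84. PGK1 was at -1.58, PGAM1 at -1.20 and PKM at -1.05, and ENO3 was higher by 3.03 ± 0.32 SE, from 12.7 to 112 TPM. Regulators gave 9 higher and 0 lower of 13, and pyruvate and lactate genes 6 higher and 4 lower of 15. Over all genes tested 20.3% rose and 19.8% fell. The kinases that switch off pyruvate dehydrogenase moved in both directions. PDK1 was higher by 2.71, PDK2 by 1.29 and PDK4 by 3.59, the last at a mean of 2.15 TPM on day 11, and PDK3 was lower at -1.56, from a mean of 72.9 TPM on day 0. Of the marker lists, endoderm and liver gave 8 higher of 8, cardiomyocyte 7 of 8, mesenchymal 6 of 7 and pluripotent 7 lower of 7. In the day 11 libraries of plates 2, 5 and 6 the cardiomyocyte list summed to 5830, 20605 and 3735 TPM. The mesenchymal list summed to 3420, 1247 and 7368 TPM there. The part of these differences in the members' day 11 values was not tested.

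Day 20 against day 11 compares the day 11 cells with later cells. No member passed, where 1.12% of the 21398 genes tested rose and 0.435% fell (332 genes by edgeR, with DESeq2 calling 1 member and 1871 genes). The members' median log2 difference was 0.81 against 0.066 over all genes, with 9 of 10 positive. LDHA came nearest. Its day 11 libraries held 229, 265 and 169 TPM and its day 20 libraries 1136, 1069 and 504 TPM, so that the lowest day 20 library lay above the highest of day 11. The log2 difference was 1.89 ± 0.41 SE (adjusted p = 0.0689, edgeR), and 1.90 ± 0.38 SE without the library labelled 2_3 (adjusted p = 0.0562, edgeR). DESeq2 and the fit of all 15 libraries passed LDHA, the latter together with HK2.

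The spread between the 3 day 20 libraries was wide for most members. SLC2A4 was at 66, 23.8 and 13.3 TPM in the libraries labelled 2, 2_3 and 6_1, and SLC2A1 at 276, 166 and 912 TPM. ALDOA was at 1759, 634 and 798 TPM and HK2 at 176, 65.8 and 78.4 TPM. Library 2 was the highest for 9 of the 10 members, all but SLC2A1, for which library 6_1 was highest. Library 2_3 was lowest for SLC2A1, SLC2A3, HK2 and ALDOA, and library 6_1 for SLC2A4, HK1, PFKM, PFKP, LDHA and LDHB.

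These libraries also differed in cell markers. The cardiomyocyte list of 8 genes summed to 22895, 21824 and 5232 TPM in libraries 2, 2_3 and 6_1, and the mesenchymal list of 7 genes, led by COL3A1, to 3203, 1212 and 24452 TPM. The endoderm and liver list of 8 genes, led by AFP, summed to 21742, 869 and 22664 TPM. Library 6_1 was therefore low in heart genes and high in mesenchymal genes, and library 2_3 alone was low in liver genes. No defining marker of these 3 lists was at 0 counts in any day 20 library. This does not show that a cell type was present, since 100% of the nearly silent genes had reads in library 2_3 and 74.6% in library 6_1. The part of these marker differences in the members' day 20 values was not tested. The SLC2A4 level of 23.8 TPM in library 2_3 compares with the 2.73 TPM at which the genes nearly silent before day 20 were counted there.

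**Figure D3:**
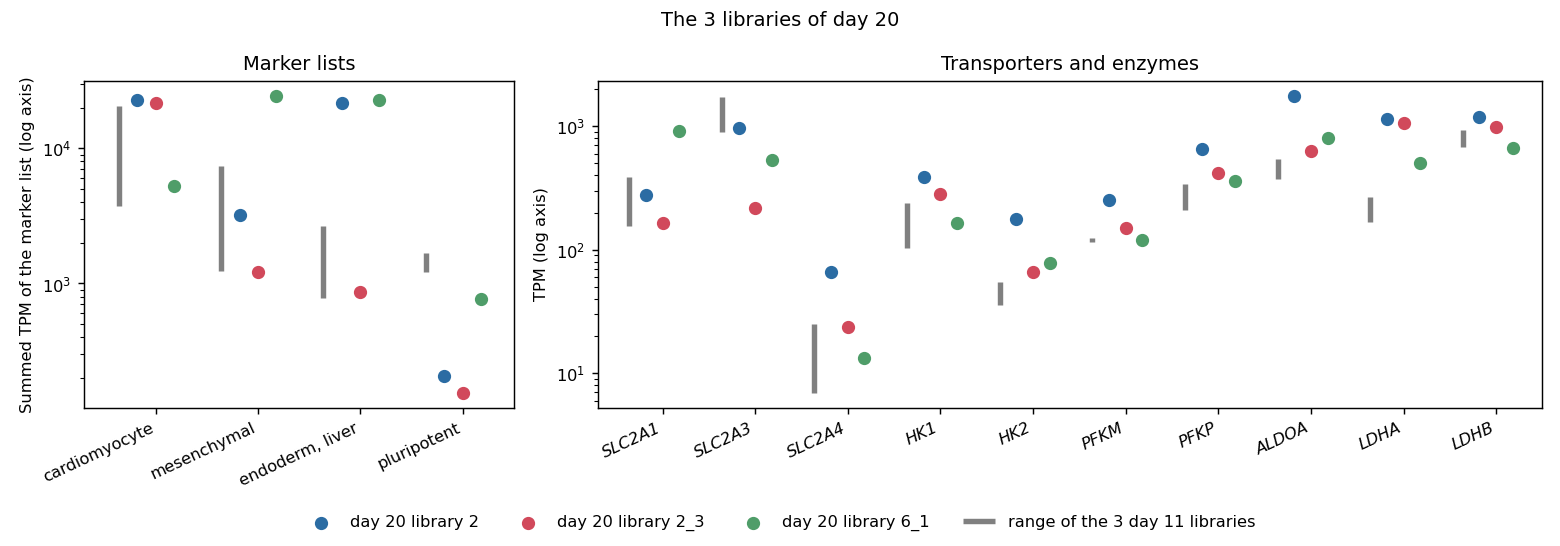
Left, summed TPM (log axis) of 4 marker lists in the 3 day 20 libraries, with grey bars for the range of the 3 day 11 libraries. Right, TPM (log axis) of the 10 genes in the same libraries. Library 6_1 has the lowest cardiomyocyte sum, 5232 TPM, and the highest SLC2A1, 912 TPM, while LDHA is above the day 11 range in all 3 libraries.

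Day 20 against day 0 left 1 member past the threshold, PFKP, which rose, where 16.1% of the 21988 genes tested rose and 11.3% fell. Its libraries went from 127, 124 and 101 TPM to 650.3, 416 and 357 TPM without overlap, a log2 difference of 1.79 ± 0.35 SE (adjusted p = 0.00758, edgeR). It was 1.99 ± 0.27 SE without library 2_3 (adjusted p = 0.002, edgeR), and the call was lost when any day 0 library was left out (adjusted p of 0.0534 to 0.0794). Only lane 1 held libraries of both days, so lane and day were largely confounded. Within lane 1 PFKP differed by 1.51 on log2 CPM. PFKM was at 253, 151 and 119.6 TPM on day 20, above every day 0 library, and missed the threshold at 1.07 ± 0.37 SE (adjusted p = 0.0643, edgeR). Without library 2_3 both PFKM (1.28 ± 0.32 SE, adjusted p = 0.0192) and SLC2A4 (1.85 ± 0.58 SE, adjusted p = 0.0415) passed by edgeR. Both also passed with library 2_3 kept, by DESeq2 (adjusted p = 0.0331 and 0.0324) and by edgeR with all 15 libraries in the same fit (0.00509 and 0.0337). Of 11 alternatives PFKM passed in 5 and SLC2A4 in 4. Over all 11 the log2 difference ran from 0.54 to 1.28 for PFKM and from 0.44 to 1.89 for SLC2A4. With all libraries SLC2A4 stood at 1.56 ± 0.59 SE (adjusted p = 0.0831, edgeR).

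SLC2A1 differed from day 0 by -1.02 ± 0.67 SE on the log2 scale in the fit of all libraries (adjusted p = 0.301, edgeR), and it passed at -2.22 when library 6_1 was left out (adjusted p = 0.0212, edgeR). LDHA, ALDOA, HK1 and HK2 overlapped their day 0 levels, with log2 differences of 0.41, 0.73, 0.21 and -0.35. ALDOA led the members on day 20 at 1064 ± 608 TPM, followed by LDHB (944 ± 259), LDHA (903 ± 347) and SLC2A3 (570.0 ± 371), and each neighbour in the whole order of 10 overlapped the next.

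In the other lists, the day 20 cells had 2 higher and 0 lower of 14 glycolysis enzymes against day 0. Over all genes tested 16.1% rose and 11.3% fell, and some of the list counts here lie near these shares. ENO3 was higher by 3.82 ± 0.54 SE at 84.9 to 359 TPM, and HKDC1 was higher at low levels of 2.21 to 9.34 TPM. The pentose branch gave 4 lower and 0 higher of 6, with TALDO1 at -1.86. Pyruvate and lactate genes gave 5 higher and 2 lower of 15, with PDK4 at 5.51, MPC1 at 2.77 and PDK1 at 2.74 and the lactate carrier SLC16A1 at -2.31. Glycogen genes gave 2 higher, PYGM at 3.31 and GBE1 at 2.57, and 1 lower, UGP2 at -1.95. The insulin and GLUT4 traffic list gave 4 higher and 0 lower of 11, led by LNPEP at 2.43, a protein of GLUT4 vesicles, and TBC1D4 at 1.44, which restrains GLUT4 vesicle traffic. Day 20 against day 11, where 1.12% of all genes tested rose, gave 3 higher genes of 93 in these lists. They were SLC2A5, SLC5A1 and HKDC1, all at mean levels of 6.35 to 7.33 TPM on day 20. In library 2_3 these 3 were at 7.48 to 16.8 TPM, against the median of 2.73 TPM of the nearly silent genes there.

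Ratios between isoforms were taken within each library, as the log2 ratio of TPM after adding 0.1, and are free of library depth and of scaling. The level of a ratio depends on the gene lengths behind the TPM, whose source is not stated. These lengths are the same in every library, so differences between days do not rest on them. An exact permutation test of the F statistic over all 1401400 divisions of the 15 libraries into 5 groups of 3 asked whether a ratio differed across days, and p-values were adjusted over the 5 ratios. For 2 days of 3 libraries the smallest two-sided exact p is 0.1, so pairs of days are described by their values.

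SLC2A3 overtook SLC2A1 on day 9. The log2 ratio of SLC2A3 to SLC2A1 was -0.39 ± 0.30 (SD, n = 3) on day 0 and -0.43 ± 0.0028 on day 4, then 3.49 ± 0.45 on day 9, 2.44 ± 1.09 on day 11 and 0.47 ± 1.29 on day 20. The ratio differed across days (exact permutation p = 0.00234, adjusted 0.00701). Of the summed TPM of the 3 transporters, SLC2A1 made up 50.6% to 60.3% on days 0 and 4, 6.66% to 11.3% on day 9, 8.74% to 29.7% on day 11, and 21.2%, 40.6% and 62.5% in the 3 day 20 libraries. The sum itself was 1199 to 1749 TPM on day 0 and 1317 to 2190.1 TPM on day 9, ranges that overlap.

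SLC2A4 was a small part of the sum throughout. It made up 0.414% to 1.30% in every library of days 0 to 11, and 5.08%, 5.81% and 0.913% in the day 20 libraries 2, 2_3 and 6_1. Its log2 ratio to SLC2A1 was -6.33 ± 0.20 on day 0 and -3.65 ± 2.14 on day 20, and the test across days missed the threshold (exact permutation p = 0.0532, adjusted 0.0613). Library 6_1 of day 20, at -6.09, lay within the range of day 4, which was -6.80 to -6.07.

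LDHB exceeded LDHA in TPM in every library except the day 20 library 2_3. This order depends in part on the gene lengths, implied by counts and TPM at 6210 bases for LDHA and 2983 for LDHB. In counts not divided by length, LDHA exceeded LDHB in every library of days 4 and 20 and in day 0 replicates 1 and 3. The log2 ratio of LDHB to LDHA was 1.17 ± 0.93 on day 0, 0.60 ± 0.11 on day 4, 2.76 ± 0.74 on day 9, 1.94 ± 0.56 on day 11 and 0.11 ± 0.26 on day 20. As a share of both, LDHB went from 60.3% ± 1.80 on day 4 to 86.4% ± 5.56 on day 9 and 52.0% ± 4.55 on day 20. The ratio differed across days (exact permutation p = 0.00281, adjusted 0.00701), and day 20 did not overlap any other day.

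PFKP exceeded PFKM in TPM in all 15 libraries, with implied lengths of 4836 bases for PFKP and 7284 for PFKM. In counts not divided by length, PFKP lay below PFKM in day 0 replicate 1 (4254 against 4401). It also lay below in the day 9 library of plate 2 (2724 against 3142) and in that without a plate number (3767 against 4899). The log2 ratio was 0.73 ± 0.24 on day 0, 0.78 ± 0.18 on day 4, 0.41 ± 0.21 on day 9, 1.12 ± 0.37 on day 11 and 1.47 ± 0.11 on day 20. It differed across days (exact permutation p = 0.00424, adjusted 0.00707), and every day 20 library lay above every day 0 library. PFKP made up 73.4% ± 1.45 of the 2 genes on day 20.

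HK1 exceeded HK2 in all 15 libraries. The log2 ratio of HK2 to HK1 was -0.78 ± 0.65 on day 0, -0.57 ± 0.10 on day 4, -1.17 ± 0.14 on day 9, -1.74 ± 0.48 on day 11 and -1.44 ± 0.59 on day 20. Days 4 and 9 did not overlap, but the test across days missed the threshold (exact permutation p = 0.0613, adjusted 0.0613). HK2 made up 40.2% ± 1.66 of the 2 genes on day 4 and 23.4% ± 6.11 on day 11.

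**Figure D4:**
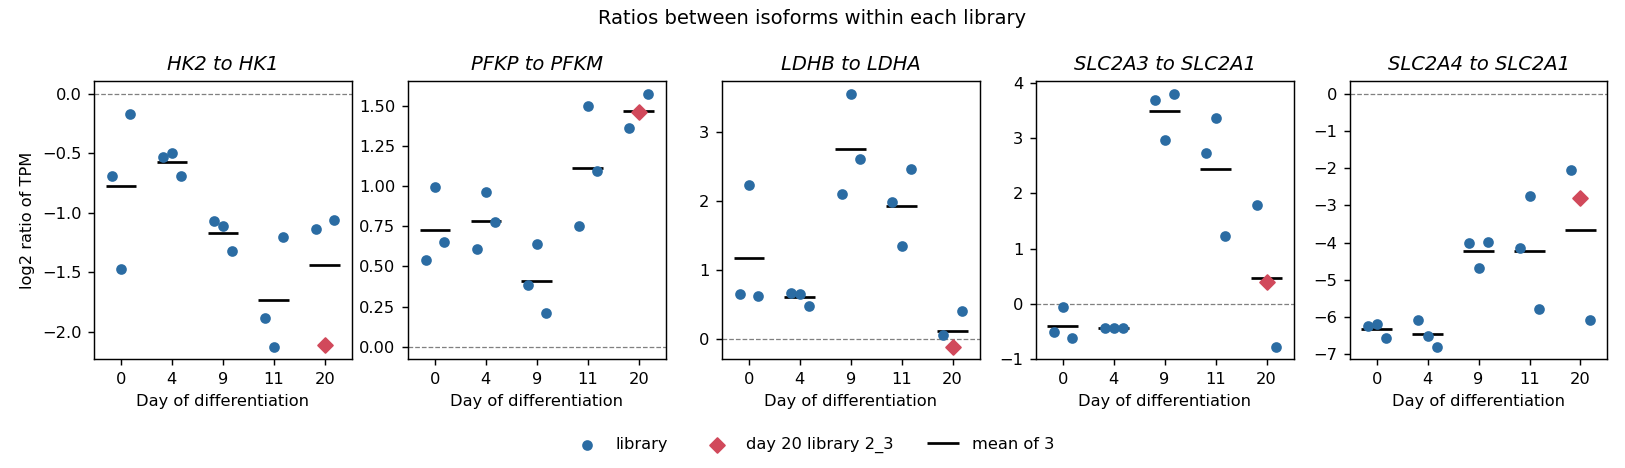
Log2 ratio of TPM between isoforms in each library against day of differentiation, for 5 pairs. Points are libraries, the red diamond is the day 20 library labelled 2_3, bars are means of 3 and the dashed line marks equal levels. LDHB to LDHA and SLC2A3 to SLC2A1 peak on day 9, at means of 2.76 and 3.49, and PFKP to PFKM is highest on day 20 at 1.47.

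The members fell into patterns across the 15 libraries, given as Pearson r of log2 CPM with no test, since libraries of a day share their state. HK2, HK1, ALDOA and LDHA went together, with r of 0.79 to 0.88 between each pair, and PFKM went with PFKP at 0.86. SLC2A1 went with HK2 at 0.82, and the highest r of SLC2A3 with another member was 0.08, with PFKM. Among 10787 other coding genes with a mean of at least 10 CPM, HK2 was most like PGK1 (0.96), ENO1 (0.96) and TPI1 (0.96), which are enzymes of the same pathway. ALDOA was most like GPI (0.96), ALDOC (0.95) and FAM162A (0.94), and HK1 was like PDSS2 (0.94) and GPI (0.92). SLC2A3 was most like its copy SLC2A14 (0.96), LAMA1 (0.94) and ID1 (0.93).

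PFKP was most like FBH1 (0.99), ETFB (0.97) and DUSP3 (0.96), and PFKM was most like UQCRC2 (0.96), a subunit of respiratory complex III, HABP4 (0.95) and IDH2 (0.94), a mitochondrial isocitrate dehydrogenase. SLC2A4 was most like EEF1A2 (0.93), CAND2 (0.93) and MICAL3 (0.91), and LDHA like CTNND2 (0.94), RIMKLA (0.93) and PDLIM3 (0.93). SLC2A1 was most like MTM1 (0.95), EFNA5 (0.95) and MYLIP (0.94), and LDHB like SMC3 (0.94), NTHL1 (0.94) and CHMP2B (0.93). Over days 0 to 20 LDHB was the steadiest member, with day means of 840.5 to 1202 TPM and no call in the main fit of any of the 6 comparisons. Some alternative fits called it lower on day 11 than on day 0.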

How the data were processed

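Bulk RNA-seq of 15 libraries (5 days, 3 replicates each) was analysed from the deposited tables. Groups follow the sample labels (day 9, listed as day 7 in the methods). Reads of a stranded kit with ribosomal RNA depleted were mapped by the authors with STAR 2.5.2b to GRCh38 and Ensembl release 79, genes of ribosomal RNA and mitochondria were dropped, and raw counts from featureCounts 1.5.1 were deposited. The authors also deposited TPM, made from these counts and a gene length whose source is not stated. In the deposited sample table the RNA integrity number is a score and the share of reads mapped to one place is a fraction, beside the lane. Libraries held 11990302 to 33469703 counts, and errors cover the spread between libraries.

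Counts were compared with edgeR 4.0.16 (filterByExpr at a count of 10 and a total of 15, TMM, quasi-likelihood test) on the 6 libraries of each of 6 pairs of days, without covariates, two-sided, at 0.05 after the Benjamini-Hochberg correction across the genes tested. The SE is the absolute log2 difference over the root of F. On counts simulated for day 11 against day 9, with 19983 genes, 140 of 192 changed genes were recovered among 146 calls, of which 4.11% were false. The simulation gave every gene the same dispersion, so these values do not describe recovery in the real libraries. Isoform ratios used TPM with 0.1 added. The 10 genes and all lists were chosen with earlier results of these data known. Every one of the 10 genes was named in every comparison, for other lists at most the 4 genes past the threshold with the largest change were named, with SLC2A14 in addition. A few genes of these lists are not reported here and were left out of the list counts. PFKL, TPI1, GAPDH, PGAM1, ENO1, PKM, PDK2, PDK3 and the leading marker genes were named after their values were seen. Marker lists were read for pluripotent, cardiomyocyte, mesenchymal, endothelial, epithelial, endoderm and liver, erythroid and neural cells. Of the lists not given elsewhere, the endothelial markers summed to 80.9 to 332 TPM, the epithelial to 1139 to 6711 TPM, the erythroid to 2.12 to 32.2 TPM and the neural to 3.97 to 315 TPM over all libraries.

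Alternatives were DESeq2 1.42.0, scaling to library size only, all genes kept whatever their counts, all 15 libraries in one fit, limma 3.58.1 on log2 TPM with 1 added, the lane or the plate as a block, each library left out in turn, a pseudocount of 1 for ratios, and TPM rescaled without genes whose implied length is under 100 bases. One such gene took 20.0% of all TPM in day 0 replicate 3 and 17.0% in the day 9 library of plate 2, which lowers the TPM of other genes there but not counts or ratios within a library.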

Additional observations from a re-analysis of the deposited data

How the results depend on the processing

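Of 710 refitted values of the 10 genes, 649 kept their direction and their side of the threshold, 14 lost and 24 gained a call, and 23 changed sign, none of them for a gene called with all libraries. Mean TPM per day rose by 1.03 to 1.14 times without genes of under 100 bases. Single libraries differed more, since these genes held 23.8% of TPM in day 0 replicate 3 and 18.8% in the day 9 library of plate 2. They held 1.84% to 6.51% in the others, so TPM of those 2 libraries is the most lowered. Scaling to library size alone moved the median of all genes on day 20 against day 0 from 0.11 to 0.23, and no other comparison by over 0.1.

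Among counts, day 4 against day 0 gave 1 pathway list gene and 64 genes in all with no filter on low counts, against 0. Day 9 against day 4 gave 33 list genes and 6220 genes with all 15 libraries in the same fit, against 57 and 10406. Day 11 against day 9 called 0 members, 6 list genes and 495 genes, against 2, 22 and 1674 by DESeq2 and 1, 17 and 1016 without a filter. Leaving out each library in turn gave 0 to 6 list genes and 0 to 573 genes, the lowest without the day 9 library of plate 2, and 1 and 37 without the day 9 library that has no plate number. Day 20 against day 11 called 0 members, 3 list genes and 332 genes, against 1, 15 and 1871 by DESeq2 and 2, 23 and 2883 with all 15 libraries, and 137 genes with the lane as a block. Leaving out libraries gave 0 to 8 list genes and 0 to 510 genes. Day 11 against day 0 called 29 to 48 list genes with a library left out, against 45. Day 20 against day 0 called 1 member, against 3 by DESeq2, 2 by library size alone, 0 without a filter, 3 with all 15 libraries and 2 by limma on TPM, and 0 to 3 with a library left out. It called 21 to 40 list genes and 3128 to 8993 genes with a library left out, against 34 and 6027, and 9916 genes with all 15 libraries. The causes were not tested.

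With the plate as a replicate block and without the day 9 library that has no plate number, day 11 against day 9 called 3 members (SLC2A1, HK1 and PFKP), 23 list genes and 1989 genes, and day 20 against day 11 called 0 list genes and 3 genes. Only 2 plates were shared in each step. Correlations of deviations were 0.10 and 0.30 between days 9 and 11. Between days 11 and 20 they were -0.14 and 0.013 for plate 2, which has 2 libraries on day 20, and 0.35 for plate 6. The numbers do not establish a pairing.

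The values that changed sign were small or rested on 1 library. On day 4 against day 0, HK1 (-0.044) was 0.041 by limma and -0.15 to 0.13 with a library left out, HK2 (0.15) -0.024 to 0.36, PFKM (0.050) -0.069 to 0.17 and LDHB (-0.087) -0.19 to 0.047. On day 9 against day 4, PFKP (-0.036) was 0.049 by library size alone, -0.17 to 0.015 without a numbered library and 0.087 without the day 9 library that has no plate number. On day 20 against day 11, SLC2A1 (0.89) was -0.28 to 1.46 with a library left out, the lowest without 6_1, and PFKM (0.42) -0.085 to 0.63, the lowest without library 2. LDHB (0.033) was -0.095 with no filter, -0.015 with all 15 libraries, -0.17 with the plate as a block and -0.29 to 0.15 with a library left out. On day 11 against day 0, SLC2A4 (0.29) was -0.45 to 0.59, the lowest without plate 5. On day 20 against day 0, SLC2A3 (-0.27) was -0.98 to 0.16, the highest without 2_3, and HK1 (0.21) was -0.010 with no filter and -0.29 to 0.39 with a library left out. The 5 isoform ratios kept their side of the threshold with a pseudocount of 1 and without the day 20 library 2_3, and their day 20 minus day 0 differences moved by less than the spread between replicates.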
